A study of Rattus norvegicus with 8 samples.

Results

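Healing was compared with control medial collateral ligament in rats whose hindlimbs bore no weight, on the 2 arrays titled unloaded healing and the 2 titled unloaded control. These 4 of the 8 arrays of the series were taken by their titles, and all 8740 probe sets other than the array's controls were kept. In the unloaded healing group the ligaments of both knees had been disrupted and unloading by tail suspension began 24 h after surgery. The unloaded control group was suspended in the same way but had no operation, not even a sham operation, so surgery and injury cannot be told apart here. The loaded control group, used for reference, had sham surgery, and the loaded healing group had its ligaments disrupted and was not suspended. All ligaments were dissected at 3 weeks. Neither strain nor age is stated in the sources used here, nor whether the 2 arrays of a group came from separate animals, from a pool or from repeats of 1 sample, and the spread behind each p-value is that between arrays, which may be technical.

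The medial collateral ligament is a band of parallel type I collagen fibres on the inner side of the knee, laid down and kept up by fibroblasts. After rupture, inflammatory cells enter the gap, fibroblasts then fill it with a disordered scar rich in type III collagen, and the scar is slowly remodelled by proteases and by mechanical load. Tail suspension takes load off the hindlimbs and is used to ask how such repair proceeds without it.

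Values were signal intensities, already scaled between arrays by the authors, so a signal is relative to the mean of its array. Abundant transcripts read low on both unloaded control arrays. The 99th percentile of signal was 5494 and 5584 there and 9218 to 11289 on the 6 other arrays, while the median was 313.6 and 315.9 against 238.7 to 286.2. The actin 5'/3' control ratio was 0.964 and 0.634 there and 0.237 to 0.529 elsewhere, the 5S ribosomal RNA control read 1155 and 1796 there and 126.4 to 486.7 elsewhere, and the actin 3' control, low on the loaded healing arrays too (1353 and 1597), read 1284 and 1494 there against 4786 and 5235 on the unloaded healing arrays. A healing array differed too. On unloaded healing 2 the BioB spike-in controls read 761 to 1099, against 6774 to 27208 on unloaded healing 1 and 2597 to 20544 on the others. The part of these array differences in the results was not tested. In bulk tissue, fewer cells of a type and less RNA per cell cannot be told apart either.

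Of 5244 probe sets bright enough to test, 336 (6.41%) were called higher in unloaded healing and 55 (1.05%) lower (limma, Benjamini-Hochberg adjusted p under 0.05). With 1 probe set per gene, 161 of 3228 genes (4.99%) were called higher and 23 (0.713%) lower. Without a test, both healing arrays lay above both control arrays at 980 probe sets (18.7%) and below them at 1755 (33.5%). All 391 called probe sets were among these. The rises had a median of 2.71 on the log2 scale and ranged from 0.50 to 7.52, and the falls had a median of -1.72. All differences are on log2(signal + 45.8), which understates changes of dim probe sets. The median over all tested probe sets was -0.23, so a class is read against that level and not against 0. Median centring moved that median by 0.20, cyclic loess by 0.19 and spike-in scaling by -0.17. It stayed below 0 throughout, at -0.16 under quantile normalization, -0.03 under median centring, -0.03 under cyclic loess and -0.40 under spike-in scaling. The sign of a class median alone therefore does not set a class apart. Of the calls, 85.9% were rises as deposited, and 62.3% under quantile normalization, with 387 rises and 234 falls.

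**Figure D1:**
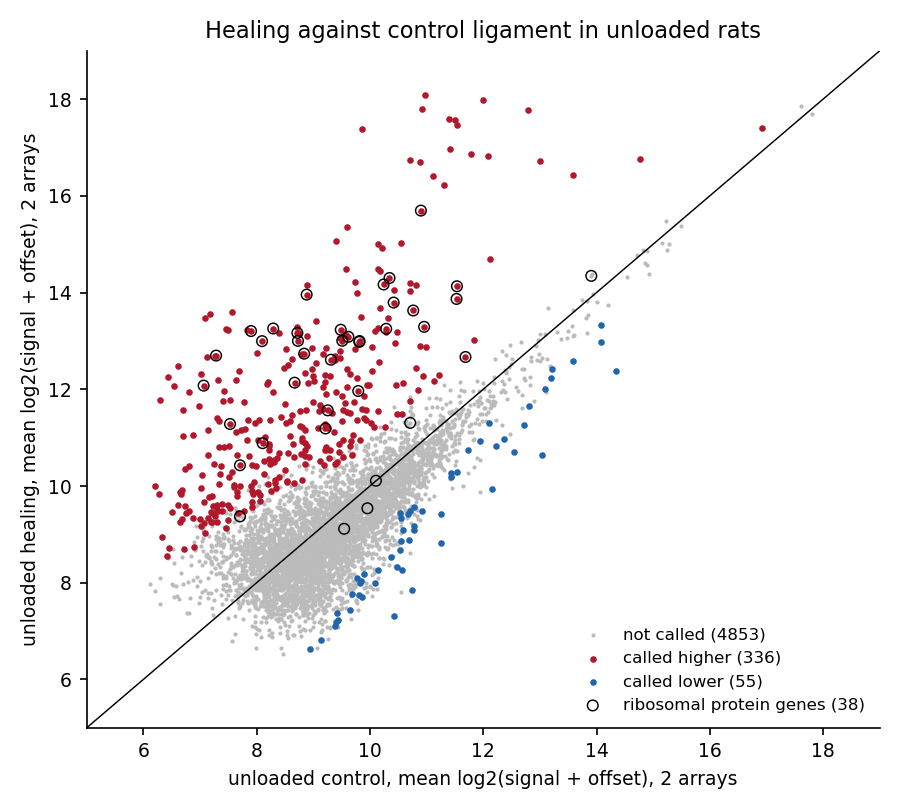
Mean log2(signal + offset) of the 2 unloaded control arrays (x axis) and the 2 unloaded healing arrays (y axis) for 5244 probe sets, with calls in red (336 higher) and blue (55 lower), ribosomal protein genes circled and the line of equality in black. The rises lie in a cloud well above the line that holds most ribosomal protein genes, while a second arm of bright probe sets follows the line.

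The difference depended on how bright a probe set was. Probe sets were grouped by their geometric mean signal on the 4 loaded arrays, which were not part of the comparison. Below 100, where 5 of 2158 probe sets were bright enough to test, the median difference was -0.20. It was -0.28 between 100 and 200, -0.31 between 200 and 400, -0.25 between 400 and 800, and -0.18 between 800 and 1600. These 5 ranges held 109 of the 336 rises and 39 of the 55 falls. The median then rose to -0.01 between 1600 and 3200, 0.87 between 3200 and 6400, and 2.93 at 6400 and over. In these upper ranges 70 of 351 (19.9%), 71 of 144 (49.3%) and 86 of 134 (64.2%) tested probe sets were called higher, against 9, 2 and 5 called lower.

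**Figure D2:**
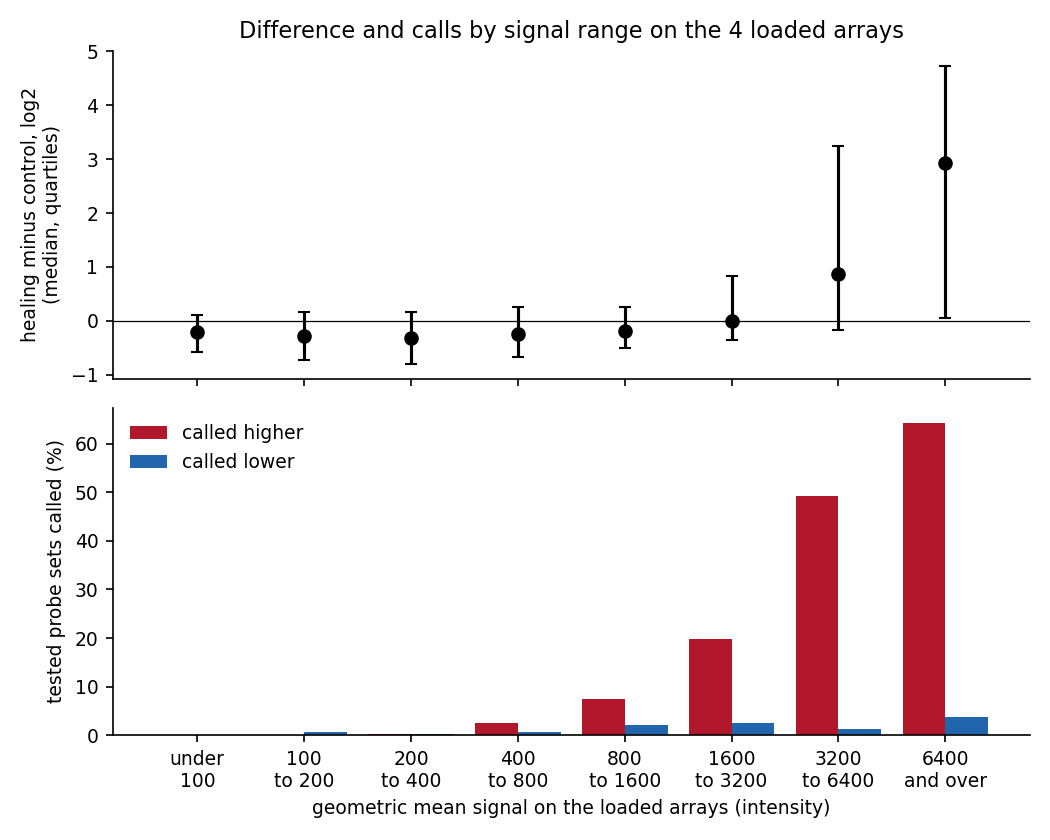
The upper panel shows the median and quartiles of unloaded healing minus unloaded control (log2) in 8 ranges of signal on the loaded arrays, and the lower panel the share of tested probe sets called higher (red) or lower (blue) in each. The median lies slightly below 0 up to 1600 and reaches 2.93 in the top range, where 64.2% were called higher.

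Among the 200 probe sets brightest on the loaded arrays, the median signal was 9205 and 7867 on the healing arrays and 2028 and 1954 on the control arrays. In that group 120 differed upward by more than 1 on the log2 scale, 6 downward by more than 1, and 74 stayed within 1. The brightest range was thus split: its upper quartile was far above its lower quartile, and many abundant probe sets had nearly the same signal on all 4 arrays.

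The share of abundant genes that rose differed between gene lists, which were drawn up with earlier results of these data known. At 3200 and over there were 140 genes, of which 65 (46.4%) were called higher, 1 lower and 74 neither. Ribosomal proteins made up 26 of the 140, and 25 of those 26 were called higher (96.2%). Of the 114 others, 40 (35.1%) were called higher. All 8 adhesion and cytoskeleton genes, all 3 fibrillar collagens, all 3 mitochondrially encoded genes and 4 of 5 proteoglycans or matrix glycoproteins of that brightness were called higher. Of the 65 genes in none of the lists, 12 (18.5%) were.

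The 74 abundant genes without a call were a mixed group, and those named here were chosen after their values were seen. Prrc2c, a large RNA-binding protein, read 15635 and 13099 in healing and 16953 and 15917 in control ligament. Ddr1, a receptor tyrosine kinase that binds collagen, read 16616 and 12784 against 15158 and 14027. Several such probe sets belong to genes whose product is made mainly outside ligament. Crp, a liver protein of the acute phase, read 32682 and 27597 against 29477 and 28004, and Lep, the adipocyte hormone leptin, read 11329 and 6934 against 12512 and 12205. What such signals measure in ligament was not tested.

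Ribosomal proteins, the structural proteins of the ribosome, rose as a class. Of 38 tested, 32 were called higher and 0 lower, with a median difference of 3.24 against -0.23 over all genes. The median lay between 3.05 and 3.44 under the 4 other scalings. Rps6, whose product is phosphorylated by S6 kinases when growth signalling is active, read 16347 and 15396 in healing and 350.2 and 517.4 in control ligament, a difference of 5.07 ± 0.20 (SE, 2 arrays a group; limma adjusted p = 4.87e-08). The groups were more than an order of magnitude apart and each pair of arrays was close. Rps29 read 53606 and 52401 against 1903 and 1828, the brightest member of the class.

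The 6 ribosomal protein genes not called ran against the class or fell short of the threshold. Rps15 read 24017 and 17957 in healing and 16059 and 14625 in control ligament, a difference of 0.44 (limma adjusted p = 0.244). Rps24 read 808.3 and 602.7 against 838.1 and 1070, and Rpl17 read 1389 and 804.7 against 1115 and 1001, so Rps24 was lower on both healing arrays, without a call, and the groups of Rpl17 overlapped. Rpl3l, a form of Rpl3 made in striated muscle, read 536.8 and 482.1 against 561.1 and 873.8. Rpl35a (0.60) and Rpl30 (1.67) were above 0 but not called. Ribosomal protein genes have many near-identical processed pseudogenes, so a probe set of this class can read more than 1 locus.

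Many ribosomal protein messenger RNAs begin with a run of pyrimidines, the 5' terminal oligopyrimidine tract, through which their translation follows growth signals. The gene starts below are 5 of the 19 in the class that held a motif as defined here, out of 34. Each is 30 bases long, from 10 before to 20 after the annotated start on the gene's strand, from RefSeq on rat build GRCr8. Capitals mark any of the motifs CTTTT or CTTTC or CTTCC or CTCTT, searched on the sense strand alone, where matches may overlap.
Rps3a: gtaCTTCCgccCTTTTggctctcagagcgg
Rpl23: CTTCCTTTCtgaCTCTTTCcggacgctcaa
Rps10: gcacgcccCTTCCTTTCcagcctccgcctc
Rps15: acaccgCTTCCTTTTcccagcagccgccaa
Rps24: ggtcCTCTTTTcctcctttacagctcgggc
The windows of Rps3a (chr2:173827023-173827052), Rpl23 (chr10:83272165-83272194), Rps10 (chr20:5700725-5700754) and Rps15 (chr7:10068096-10068125) lie on the minus strand and that of Rps24 (chr16:96507-96536) on the plus strand.
Of 34 ribosomal protein genes with a window, 19 (55.9%) held a motif, against 3770 of 27457 windows of that length in the table (13.7%). The motif did not follow the call within the class: 14 of 29 genes called higher and 5 of 5 not called held one. Rps3a, Rpl23 and Rps10 above were called higher, and Rps15 and Rps24 were not. A match describes the letters of the window only.

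Translation factors did not move as a class. Of 15 tested, 3 were called higher and the median was 0.09, against -0.23 over all tested probe sets. Under spike-in scaling these medians were -0.10 and -0.40. Eef1a1, which brings aminoacyl-tRNA to the ribosome, read 10637 and 7829 in healing and 336.0 and 250.0 in control ligament, a difference of 4.77 ± 0.23 (limma adjusted p = 2.13e-07), while its other probe set differed by 0.41 without a call. Naca, a chaperone of nascent chains at the ribosome, rose by 4.87, and Eef1g, a subunit of the exchange factor for Eef1a1, by 3.00. The 12 initiation and elongation factors not called lay between -0.63 and 0.36.

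The 2 brightest probe sets of the elongation factor Eef2, which moves the ribosome along the message, differed. The first read 9204 and 7618 in healing and 10183 and 11092 in control ligament, without a call. The other read 9205 and 8507 in healing and 676.0 and 770.6 in control ligament, a difference of 3.53 (limma adjusted p = 3.84e-07). On the healing arrays they were alike, and on the control arrays they were not.

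Mitochondrially encoded transcripts gave the largest rises with a gene symbol. COX3, a subunit of cytochrome c oxidase, read 208176 and 185970 in healing and 2747 and 2548 in control ligament, a difference of 6.19 ± 0.14 (limma adjusted p = 1.28e-09). COX1, the catalytic subunit, rose by 5.92 on its brighter probe set and COX2 by 3.72. On the 4 loaded arrays COX3 read 161918 to 170012, so the healing arrays lay slightly above them and the unloaded control arrays far below. Of 56 nuclear genes tested for respiration and the citrate cycle, 11 were called higher and 0 lower, with a median of 0.50. Atp5f1e, a small subunit of ATP synthase, read 3972 and 3933 against 118.5 and 131.8, and Cox4i1, a regulatory subunit of cytochrome c oxidase, read 12136 and 9587 against 573.9 and 409.4. Cox8a, another subunit of that oxidase, was as bright and was not called, at 12120 and 10532 against 13551 and 15223.

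**Figure D3:**
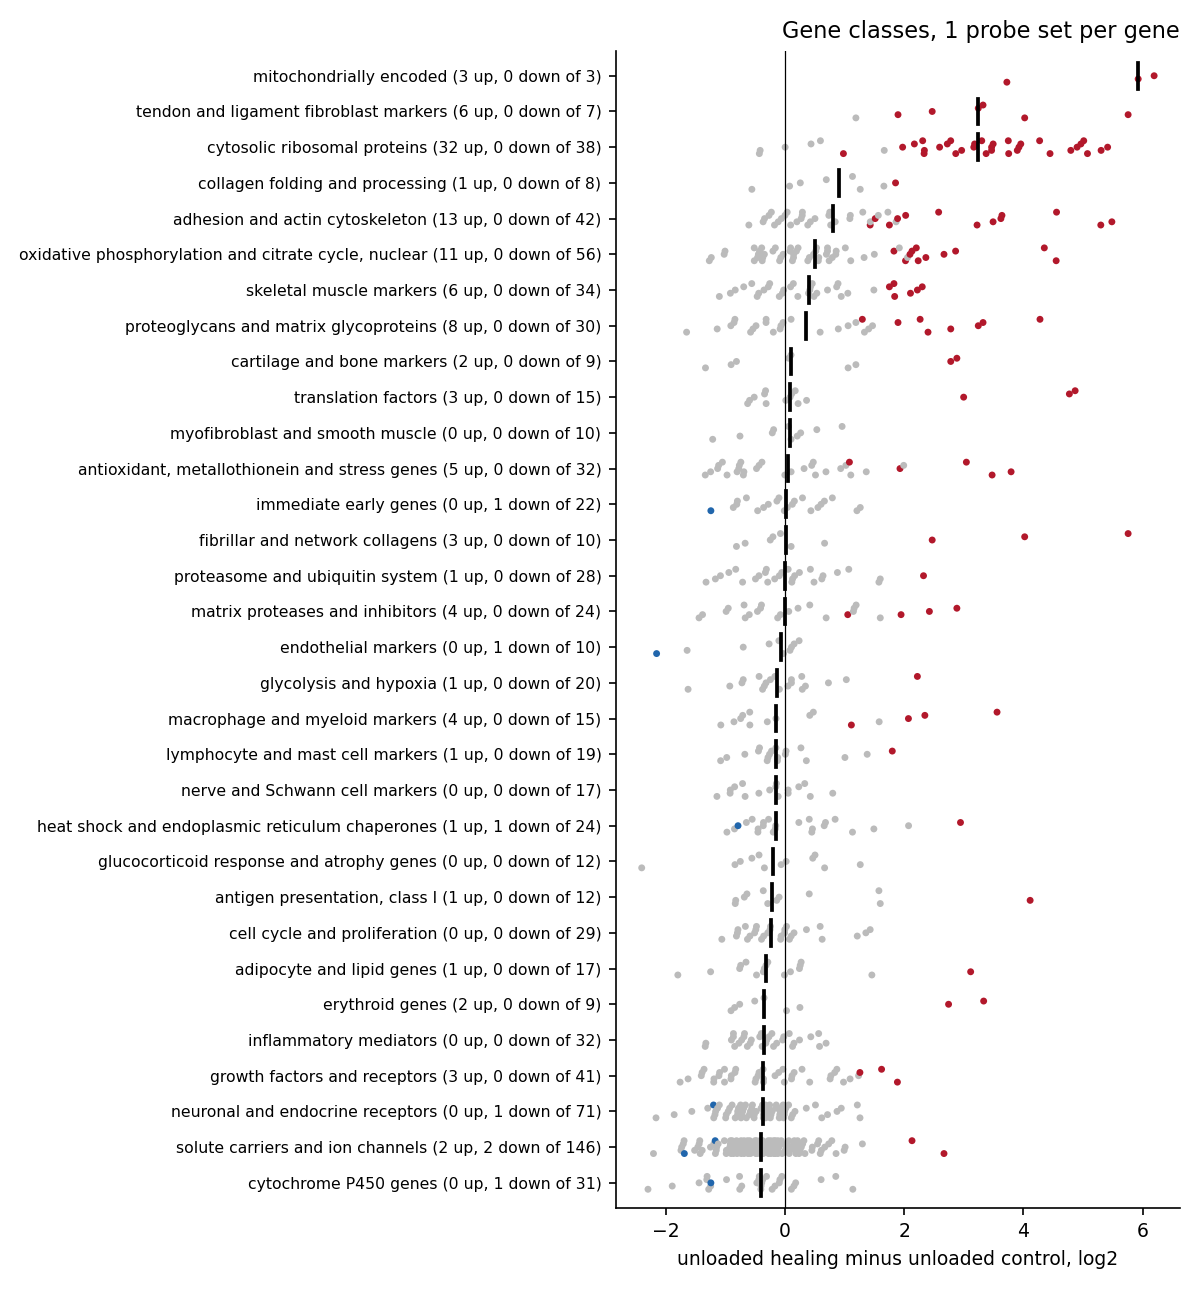
Unloaded healing minus unloaded control (log2) for each tested gene of 32 classes, 1 probe set per gene, with genes called higher in red, called lower in blue, not called in grey, and the class median as a black bar. Mitochondrially encoded genes, fibroblast markers and ribosomal proteins have medians of 5.92, 3.24 and 3.24, and every other median lies below 1.

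Fibroblast markers of tendon and ligament were checked against the tissue label. Of 10 such markers 7 were measured, and 6 of the 7 were called higher in healing, 0 lower. Their summed signal was 62705 and 47015 on the healing arrays but 2444 and 2311 in unloaded control ligament, and it ran from 83683 to 120068 over the loaded arrays. A single Col1a1 probe set made up most of that sum on the healing and loaded arrays. The median of the 7 read 2109 and 2634 in healing, 271.2 and 153.2 in unloaded control and 2640 to 3208 on the loaded arrays. By both measures the unloaded control arrays, labelled as ligament, carried little signal of these markers. The healing arrays lay below every loaded array, though by the median unloaded healing 2 was nearly level with the lowest of them, at 2634 against 2640. Not each marker did so: Dcn read 2109 and 2884 in unloaded healing and 2360 and 2240 in loaded healing ligament. The lowest signal of any of the 7 on any array was 41.3, so none was listed at 0.

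Col1a1, which encodes the more abundant chain of type I collagen, read 50510 and 34753 in healing and 699.0 and 763.1 in unloaded control ligament, a difference of 5.76 ± 0.20 (limma adjusted p = 2.46e-08). It read 59573 to 84666 on the loaded arrays, above both healing arrays. Its 3 other probe sets rose less: 2 were called, by 2.01 and 1.94, and the last read 3724 and 3467 against 1776 and 2426 without a call (0.78). Col1a2, the partner chain, rose by 2.47, from 839.7 and 816.3 to 5118 and 4490, and Col3a1, the collagen of early scar, by 4.02, from 127.4 and 104.0 to 2506 and 2634. Col3a1 read 3172 and 3208 in loaded control and 6629 and 5377 in loaded healing ligament. The 7 other collagens tested were not called and lay between -0.81 and 0.66, so the class median was 0.01, and it was -0.16 under spike-in scaling.

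Genes for matrix around the collagen fibres rose in part. Of 30 proteoglycans and matrix glycoproteins, 8 were called higher and 0 lower, with a median of 0.35. Sparc, a collagen-binding protein of remodelling matrix, read 25748 and 19467 in healing and 1154 and 1069 in control ligament, a difference of 4.28 ± 0.17 (limma adjusted p = 6.24e-08). Its 2 other probe sets that were tested rose too, by 3.27 and 1.96. Dcn, the small proteoglycan that spaces collagen fibrils, rose by 3.32, Thbs4, a thrombospondin of tendon, by 3.24, and Mgp, an inhibitor of calcification, by 2.78, although Mgp read 135.2 and 1010 on the 2 control arrays. Bgn, Postn, Fmod and Fn1, the rest of those called, rose by 2.40, 2.27, 1.90 and 1.30. Tnc, a glycoprotein of wounds, read 1656 and 2286 in healing against 3270 and 2473 in control ligament and was not called.

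Of 8 genes for folding and crosslinking collagen, 1 was called higher: Lox, the crosslinking enzyme, read 758.1 and 1045 against 219.9 and 206.5, a difference of 1.85 (limma adjusted p = 0.00307), while its 2 other tested probe sets differed by -0.07 and 0.87 without a call. The class median was 0.91, and 7 of the 8 genes lay above 0. Of 24 matrix proteases and inhibitors, 4 were called higher and 0 lower, and the median of -0.01 turned positive under quantile normalization, median centring and cyclic loess. Ctsk, a collagen-cleaving cathepsin, read 1046 and 1301 in healing and 86.3 and 158.5 in control ligament, a difference of 2.88 ± 0.49 (limma adjusted p = 0.00351). The protease inhibitors Cst3 and Cstb rose by 2.42 and 1.05. Mmp12, the elastase of macrophages, read 569.0 and 561.1 against 122.9 and 102.9, a difference of 1.95 ± 0.44 (limma adjusted p = 0.0219). Mmp13, a collagenase, read 195.3 and 263.5 against 265.5 and 173.5, so its groups overlapped.

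Cytoskeletal and adhesion genes were the other large group of rises, with 13 of 42 called higher, 0 lower and a median of 0.80. Vim, the intermediate filament of mesenchymal cells, read 6418 and 3995 in healing and 162.4 and 35.3 in control ligament, a difference of 5.30 ± 0.40 (limma adjusted p = 6.56e-06). S100a10, which binds annexin A2 at the membrane, rose by 5.48, Lgals1, a galectin of fibroblasts, by 4.56, and Actb, cytoplasmic actin, by 3.64. Actg1, the other cytoplasmic actin, read 2468 and 2603 against 1565 and 1444 and was not called (0.74). None of 10 genes of smooth muscle and myofibroblasts was called by limma, with 2 at an unadjusted p under 0.05, counting the brightest probe set of each gene. Of Tpm1, a tropomyosin of that list, the brightest probe set was not called (0.53), but 2 others were called higher, by 1.44 and 1.19 (limma adjusted p = 0.00958 and 0.0237). Acta2, the actin of myofibroblasts, read 838.8 and 722.7 against 611.6 and 671.8, a difference of 0.26 (limma adjusted p = 0.678).

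Markers of inflammatory cells gave a few rises. Of 15 macrophage and myeloid markers 4 were called higher and 0 lower, and the median of -0.15 turned positive under median centring (0.05) and cyclic loess (0.09). Their summed signal was 13910 and 15011 in healing and 11827 and 11638 in unloaded control ligament, against 13085 and 13149 in loaded control and 34982 and 39921 in loaded healing ligament. Lyz2, the lysozyme of macrophages, read 2422 and 2466 against 578.1 and 516.9, a difference of 2.07 ± 0.24 (limma adjusted p = 0.000213). Cd74, the invariant chain of class II molecules, rose by 3.56, Lgals3 by 2.35 and RT1-Da, a class II chain, by 1.11. The other tested probe set of Cd74 differed by 0.98 and that of RT1-Da by 0.72, both without a call. Cd14, Ptprc, the leukocyte phosphatase CD45, and C1qc read lower in healing than in control ligament, by 0.59, 0.74 and 0.86 on the log2 scale, and none was called. Of 32 cytokines, chemokines and other inflammatory mediators none was called by limma, with 3 at an unadjusted p under 0.05. Their median was -0.35, and it lay below the median over all tested probe sets under every scaling tried.

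Of 41 growth factors and receptors, 3 were called higher and 0 lower, with a median of -0.36. Igf1, a growth factor of tissue repair, read 1817 and 1527 against 549.5 and 314.3, a difference of 1.89 (limma adjusted p = 0.0153), which its other 2 tested probe sets did not show. Igfbp6, a binding protein for insulin-like growth factors, rose by 1.26, from 685.1 and 623.7 to 1753 and 1508. Fgfr2, a fibroblast growth factor receptor, read 902.8 and 1010 against 305.4 and 255.8, while its other tested probe set differed by -0.04 without a call. Fgf2 read 460.8 and 212.1 in healing and 971.7 and 1424 in control ligament (-1.76, limma adjusted p = 0.0648), and Vegfa, which drives vessel growth, read 337.5 and 219.0 against 790.3 and 1109 (-1.62, adjusted p = 0.0602). Neither passed the threshold.

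Some skeletal muscle genes were among the rises. Of 34 skeletal muscle markers, 6 were called higher and 0 lower, with a median of 0.41. Their summed signal was 54647 and 49506 in healing, 36225 and 38816 in unloaded control and 42148 to 58457 on the loaded arrays. That sum took in the brightest probe set of Tpm1, also on the smooth muscle and myofibroblast list, at 13573 and 12689 in healing and 8396 and 9748 in unloaded control ligament. Acta1, skeletal muscle actin, read 2324 and 2171 against 400.6 and 437.6, a difference of 2.30 ± 0.25 (limma adjusted p = 0.000108). Myh4, the heavy chain of the fastest fibres, read 2068 and 2265 against 667.9 and 557.4. Ckm, muscle creatine kinase, read 2136 and 1848 against 995.9 and 1147 without a call. Muscle lies beside the ligament, and the part of muscle RNA in these rises was not tested.

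Of 9 erythroid genes, the beta globins Hbb and Hbb-b1 were called higher and 0 lower, with a median of -0.35 for the class. Hbb-b1 read 3666 and 3136 in healing and 492.0 and 443.3 in control ligament, a difference of 2.74 ± 0.26 (limma adjusted p = 3.92e-05). Alas2, which starts haem synthesis in red cells, read 1263 and 617.2 against 933.7 and 2491, and its groups overlapped. The list's summed signal was 12320 and 10836 in healing and 7180 and 8378 in unloaded control ligament, and the part of blood in the globin rises was not tested. The 2 globin probe sets are of near-identical genes and cannot be counted as separate evidence.

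None of 29 cell cycle genes was called by limma (median -0.24, but 0.02 under cyclic loess), and none of 12 genes of glucocorticoid response and atrophy, with 3 and 4 at an unadjusted p under 0.05. By the brightest probe set of each gene, 1 of 28 proteasome and ubiquitin genes rose, and of 24 chaperones 1 rose and 1 fell. Outside these counts, a probe set of the proteasome gene Psmb4 was called higher by 2.71 and one of the chaperone Hsp90ab1 by 1.61. The median was -0.40 for 146 solute carriers and ion channels, -0.40 for 31 cytochrome P450 genes and -0.36 for 71 neuronal and endocrine receptors. All 3 lay below the median over all tested probe sets under every scaling tried. These 3 classes are for the most part genes of other organs, and their rises and falls numbered 2 and 2, 0 and 1, and 0 and 1.

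The 55 falls were smaller and dimmer than the rises, with a median signal of 1002 on the loaded arrays against 2768 for the rises. No class held more than 2 of them, but classes count the brightest probe set of each gene, which leaves out falls on dimmer probe sets. Of the falls 33 carried a gene symbol. Polr3a, the large subunit of RNA polymerase III, which makes 5S ribosomal and transfer RNA, read 150.4 and 224.3 in healing and 1619 and 1706 in control ligament, a difference of -2.89 ± 0.34 (limma adjusted p = 0.00021). On the loaded arrays it read 966.1 to 1381, so both healing arrays lay below all 6 others. Nos3, the nitric oxide synthase of endothelium, read 295.1 and 253.0 against 1365 and 1382, a difference of -2.15 ± 0.31 (limma adjusted p = 0.000991), and 831.9 to 976.7 on the loaded arrays. Its 3 other tested probe sets lay between -0.88 and -0.46 and were not called, and of 10 endothelial markers Nos3 alone was called, with Pecam1 at 504.7 and 562.5 against 608.4 and 484.4.

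Further falls rested on single probe sets among several. Homer1, a scaffold protein of synapses, gave the largest, -3.12 ± 0.65 (limma adjusted p = 0.014), with 71.8 and 166.9 in healing and 1428 and 1229 in control ligament. Its 4 other tested probe sets lay between -0.31 and 0.53 without a call. Sdc4, a heparan sulfate proteoglycan of focal adhesions, fell by 1.92 on a probe set that read 141.3 and 205.5 against 725.8 and 827.3, while its brightest read 6230 and 4412 against 5568 and 5164. Bcl2l1, which restrains apoptosis, read 189.3 and 361.3 against 1231 and 954.8, and Hspb1, a small heat shock protein, fell by 0.79, from 9454 and 9396 to 6474 and 4573. Or1f20, an olfactory receptor gene, read 407.2 and 407.4 against 2241 and 2537. Across the 85 called genes and probe sets named by rule, 65 other probe sets of 38 genes were tested. Of these 51 had the same sign, 17 were also called, and 0 were called the other way. Over all tested probe sets 6.41% were called higher and 1.05% lower, so few calls the other way would be found in any such set.

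The falls also depended on single arrays. Without unloaded control 1, 16 probe sets were called lower, without unloaded control 2, 19, and without unloaded healing 1, 99. Polr3a, Or1f20 and Nos3 were the named genes among the 7 probe sets called lower under every setting tried other than averaging, and 233 rises were called under all of them.

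**Figure D4:**
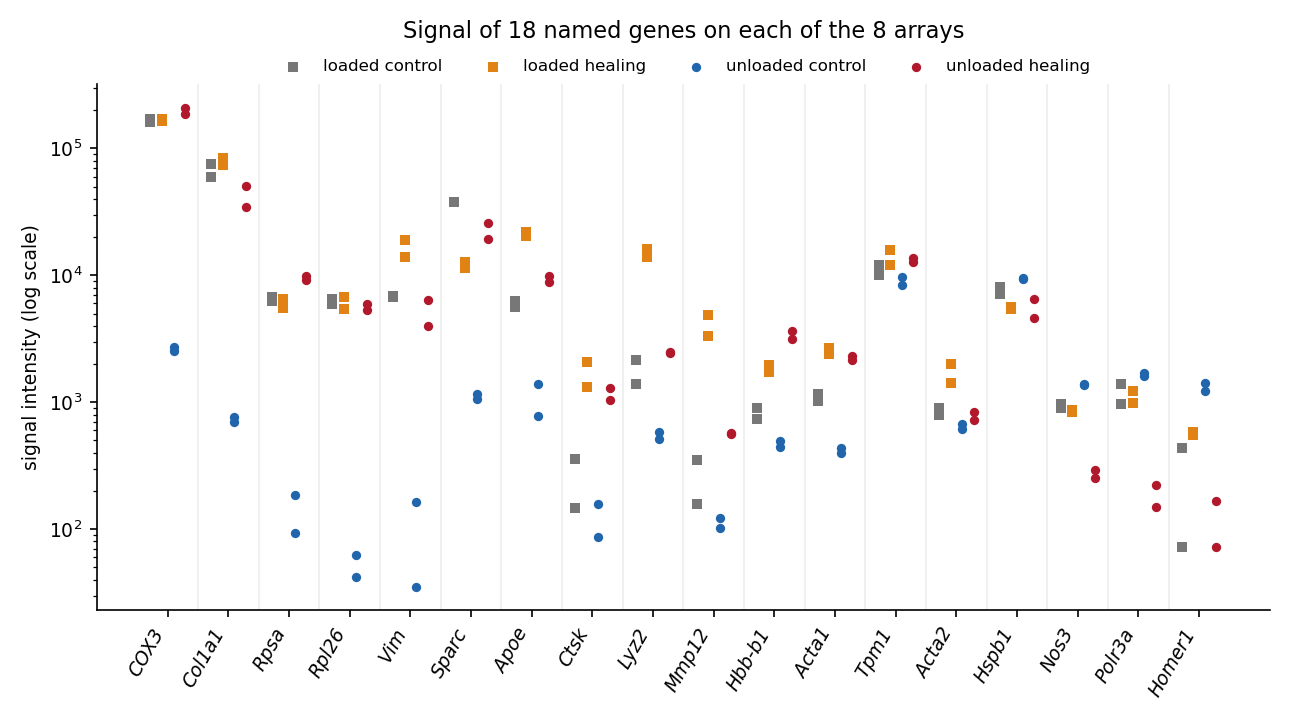
Signal intensity (log axis) of 18 named genes on each of the 8 arrays, 2 points per group. From COX3 to Apoe the unloaded control arrays lie far below the 6 others, for Acta2 and the brightest probe set of Tpm1 the unloaded groups lie close together, and for Polr3a the unloaded healing arrays lie below the rest.

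Each call could in principle come from the healing arrays, the control arrays or both, and the loaded arrays show where each pair stood. Of the 336 rises, 335 had a lower mean in unloaded than in loaded control ligament, and 291 were called lower there, of 326 called lower in all (6.22%). These 2 comparisons share the unloaded control arrays, so the counts are given side by side and are not support for each other. Both unloaded control arrays lay below all 4 loaded arrays at 316 of the rises, and at 642 of the 5244 tested. Both healing arrays lay above all 4 loaded arrays at 59 of the rises, and at 406 of the 5244. The median of the rises was -2.64 for unloaded control minus loaded control and 0.15 for unloaded healing minus loaded control.

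At 49 of the 55 falls both unloaded control arrays lay above all 4 loaded arrays, against 1294 of all tested. Both healing arrays lay below all 4 loaded arrays at 20 falls, against 289 of all tested. The median of the falls was 0.83 for unloaded control minus loaded control, where 11 were called higher of 31 in all (0.591%), and -0.73 for unloaded healing minus loaded control. These comparisons share the unloaded arrays with the one that gave the falls, so these values too are given side by side and are not support for each other.

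Against the loaded controls the healing arrays differed at few probe sets, 3 higher (0.0572%) and 1 lower (0.0191%) by limma, with 291 at an unadjusted p under 0.05. All 4 were also called in the comparison with unloaded controls, with which the healing arrays are shared. They were Hbb-b1, at 2.00 above loaded control (adjusted p = 0.0445), Polr3a, at -2.38 (adjusted p = 0.0477), and 2 probe sets without a symbol. The larger of the latter read 8151 and 6515 in unloaded healing, 244.6 and 420.9 in unloaded control, 1050 and 902.7 in loaded control and 5444 and 4462 in loaded healing ligament. Both of these probe sets were called lower in unloaded than in loaded control ligament. For Ctsk and Tcap, chosen after their values were seen, the controls lay closer together. Ctsk read 356.3 and 147.5 in loaded control ligament, and Tcap, a protein of the muscle Z-disc, read 1114 and 606.4 in unloaded healing, 106.9 and 87.8 in unloaded control and 68.1 and 120.7 in loaded control ligament.

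Whether the healing difference was the same in loaded rats was tested as an interaction, the difference in unloaded rats minus that in loaded rats. By limma it was called higher at 237 probe sets (4.52%) and lower at 17 (0.324%). Of the 336 rises 215 had a higher interaction, and of the 55 falls 9 a lower one. Among ribosomal proteins 31 of 38 were called higher, and all 7 fibroblast markers, Comp included. Comp, a cartilage and tendon matrix protein, read 524.0 and 536.0 against 137.3 and 302.1 in unloaded rats, a rise of 1.19 that was not called, and its loaded difference was -2.74. These interactions take in the low signals of the unloaded control arrays. They also set unoperated controls in unloaded rats beside sham-operated controls in loaded rats, so loading and sham surgery cannot be told apart in them.

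The loaded arms share no array with the unloaded ones, so their calls can be set side by side. Both sets of calls came from the same fit, with a shared estimate of spread and a shared brightness filter, so they are not independent. Loaded healing gave 54 probe sets called higher (1.03%) and 52 lower (0.992%). Of the 336 rises in unloaded healing, 34 (10.1%) were also called higher in loaded healing, which is 63.0% of the 54. Another 36 (10.7%) were called lower in loaded healing, which is 69.2% of the 52. Of the 55 falls, 3 were also called lower in loaded healing and 1 higher.

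The 34 shared rises were of mixed function. Lyz2 rose by 2.07 in unloaded and 3.09 in loaded rats, Mmp12 by 1.95 and 3.85, Ctsk by 2.88 and 2.61, Apoe, a lipid carrier made by macrophages, by 3.11 and 1.82, and Grn, a lysosomal glycoprotein, by 2.22 and 2.49. Lgals3, RT1-Da, Fn1, Acta1, Selenop, B2m, Mt3, Rpl39, Cox4i1, Atp5po, Atp6v0c, Psmb4, Tuba1b, Tpm1, Tmsb4x, S100a4 and Ywhah were also called higher in both. For Lyz2, Mmp12, Ctsk and Apoe no difference between the arms was called (limma interaction adjusted p = 0.187, 0.174, 0.923 and 0.0693), which does not show that they were alike. For Psap, a precursor of lysosomal activator proteins, the rise was smaller in unloaded rats, 1.64 against 2.95 (interaction -1.31, limma adjusted p = 0.016). For Cox4i1, Tmsb4x, Rpl39 and S100a4 it was larger in unloaded rats. Their interactions were 2.84, 2.69, 2.64 and 2.22 (limma adjusted p = 0.000167, 4.31e-05, 0.00123 and 0.000275), and these values take in the low signals of the unloaded control arrays.

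The 36 probe sets that rose in unloaded and fell in loaded healing had a median signal of 5249 in loaded control ligament, and the dimmest read 1159. The 17 with a symbol included Rplp0, Rps3, Rps10, Rps16, Rpl6, Sparc, Bgn, Gpx1 and Igfbp6. Bgn, a small proteoglycan, read 6478 and 5504 in unloaded healing, 1298 and 922.3 in unloaded control, 8014 and 6697 in loaded control and 3379 and 2286 in loaded healing ligament. Its unloaded healing arrays thus stood nearest the loaded controls, and its difference was 2.40 in unloaded and -1.38 in loaded rats.

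Some of the 17 probe sets with a lower interaction fell in unloaded healing, as Homer1, Polr3a, Or1f20, Plcb2 and Nos3 did. Others, such as Spp1, Cxcl13 and Ctss, rose in loaded healing and were not called in unloaded healing. Psap rose in both, and Slc2a1 and Eif3d were called in neither. Spp1, osteopontin, a secreted phosphoprotein of macrophages and bone, read 721.1 and 536.2 in unloaded healing and 304.8 and 247.4 in unloaded control ligament, but 11380 and 7322 in loaded healing and 407.0 and 453.7 in loaded control ligament. Its difference was 1.06 (adjusted p = 0.0918) in unloaded and 4.27 in loaded rats, with an interaction of -3.21 (limma adjusted p = 0.00144). Cxcl13, a chemokine for B cells, read 277.6 and 189.5 against 414.6 and 377.5 in unloaded rats and 2185 and 1644 against 95.9 and 232.4 in loaded rats (interaction -3.97, limma adjusted p = 0.00461). Ctss, a cathepsin of antigen-presenting cells, differed by 0.42 in unloaded and 2.00 in loaded rats (interaction -1.58, adjusted p = 0.0411).

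**Figure D5:**
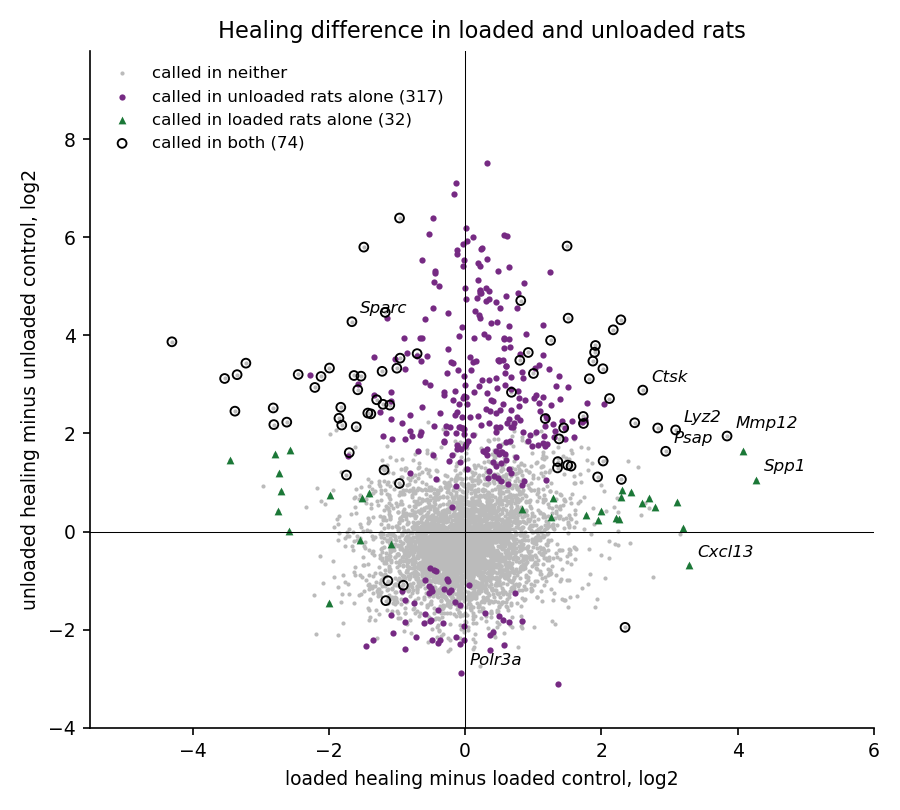
Healing minus control (log2) in loaded rats (x axis) and unloaded rats (y axis) for 5244 probe sets, with those called in unloaded rats alone in purple (317), in loaded rats alone as green triangles (32) and in both as open circles (74). Circles lie on both sides of 0 on the x axis but nearly all above 0 on the y axis, and Spp1 and Cxcl13 lie far to the right near 0 on the y axis.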

How the data were processed

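Expression was measured in rat ligament on 8 one-colour arrays, 2 in each of 4 groups set by the sample titles. The authors deposited 1 table of linear signal intensity for 8799 probe sets, already scaled, with a 2% trimmed mean between 500.3 and 500.6 on every array. The software behind these values is not named and its settings were not given in the sources used here.

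The 59 control probe sets were left out. To each value 45.8, the 10th percentile, was added and log2 taken, and the 40% of probe sets dimmest over all 8 arrays were removed, leaving 5244 of 8740. A mean per group was fitted over all 8 arrays with limma 3.58.1 in R 4.3.3, with variances following intensity, 4 residual and 5.81 prior degrees of freedom, two-sided tests and Benjamini-Hochberg adjustment over 5244 probe sets per contrast, at a threshold of 0.05. The fit was tested on simulated data with independent normal noise from the model's own variances. These data held no array-wide distortion, so that test cannot speak to the low signals of the unloaded control arrays. The number of arrays limits the precision.

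Symbols came from the platform's probe table (7006 probe sets with 1, 308 with several, 1426 with none), and 6985 were matched by Entrez identifier to RefSeq on GRCr8. Classes take the brightest probe set per gene. Genes were named by a rule: the 15 largest rises and falls with a symbol, up to 4 called members per direction of each class (or its 2 brightest if none), and the largest rise and fall of each signal range. Others named are further members of a class or of a counted group, chosen after their values were seen. Members and lists were chosen with earlier results of these data known.

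The alternatives were 4 scalings, 2 offsets, 2 filters, 2 variance priors, a replicate term, the 4 unloaded arrays alone, averaged probe sets and leaving out each array. Spike-in scaling used 6 control probe sets, of BioC, BioDn and CreX, and left out BioB. No label says that a shared replicate number marks a shared animal or batch, and deviations of same-numbered arrays correlated at 0.014 over probe sets in unloaded and 0.204 in loaded rats, so the numbers were not taken as pairs.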

Additional observations from a re-analysis of the deposited data

Results flagged for a closer look

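At 45 probe sets named by rule and called in unloaded healing, the healing difference in unloaded rats also differed from that in loaded rats by the interaction test (limma, Benjamini-Hochberg adjusted over all 5244 probe sets, largest adjusted p 0.0308). Values are the log2 difference in unloaded rats minus that in loaded rats, with 2 arrays in each of the 4 groups. All contain the low signal of abundant transcripts on the unloaded control arrays, whose part was not tested. The unloaded controls had no operation and the loaded controls had sham surgery, so loading and sham surgery cannot be told apart in these values. Among ribosomal protein genes the interaction was 4.21 for Rps6, 4.65 for Rps3a, 4.94 for Rpl23, 5.19 and 6.16 for 2 probe sets of Rpl11, 5.39 for Rpl4, 5.56 for Rpl3, 5.74 for Rpl13a, 5.85 for Rpsa and 5.90 for Rpl26. Among translation genes it was 3.00 for Eef1g, 4.09 for Naca and 4.60 for Eef1a1.

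For the mitochondrially encoded genes it was 3.97 for COX2, 5.90 and 6.59 for 2 probe sets of COX1 and 6.18 for COX3. For nuclear genes of mitochondria it was 2.08 for Cox6a1, 2.21 for Slc25a4, 2.84 for Cox4i1 and 3.78 for Atp5f1e. Matrix genes gave 1.79 for Col1a2, 2.17 for Lox, 2.41 for Thbs4, 3.13 for Col3a1, 4.21 for Dcn, 5.52 for Col1a1 and 5.94 for Sparc. Cytoskeletal and adhesion genes gave 4.05 for Vim, 4.49 for Actb, 5.02 for Lgals1 and 5.29 for S100a10.

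Growth factor genes gave 2.45 for Igfbp6 and 2.77 for Igf1. The remaining higher values were 1.60 for Hbb-b1, 2.31 for Hbb, 3.49 for Cd74, 3.63 for Nupr1, a stress-response gene, and 5.45 for Gnas, a G protein subunit. Lower values were -4.48 for Homer1, -2.83 for Polr3a, -2.79 for Or1f20, -2.48 for Plcb2, a phospholipase C, -2.01 for Nos3 and -1.98 for Cyp2c23, a cytochrome P450. For Homer1, Or1f20, Nos3, Cyp2c23, Cox6a1, Cox4i1, Lox, Igf1, Col3a1, Cd74 and Eef1a1, other probe sets of the gene were tested and none of those was called in unloaded healing by limma.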

How the results depend on the processing

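The count of rises, 336, lay between 262 and 388 under every alternative run, and every alternative other than averaging a gene's probe sets, for which shared calls were not counted, called at least 257 of the same probe sets. The count of falls, 55, was 234 under quantile normalization, 33 under median centring and 16 to 99 when 1 array was left out, the lowest without unloaded control 1. Probe sets with a lower interaction, 17, numbered 79 under quantile normalization, 8 under median centring, 47 under spike-in scaling and 6 to 32 when 1 array was left out: 6 without unloaded control 2, 7 and 8 without loaded healing 1 and 2, and 32 without unloaded healing 1. The median of the 200 brightest probe sets, 2.43, was 2.17 under quantile normalization, 2.64 under median centring, 2.14 under cyclic loess and 2.24 under spike-in scaling. Of 63 named rises 47 kept their call under every alternative, and of 22 named falls 2. A bright Ngfr probe set, 0.05 and not called, was -0.91 under quantile normalization and -0.90 with its probe sets averaged; the other Ngfr probe set was called lower as deposited (-1.85, limma adjusted p = 0.00897), with an interaction of -2.48. The cause of these changes was not tested. With a replicate block, 87 falls were called in place of 55, all 55 among them, and no other count moved by over 1.5 times. With 2 arrays a group, 1 array can decide a fall.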
